A study of Mus musculus with 11 samples.

Results

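Lipocalin 2 (Lcn2), the 2 subunits of calprotectin (S100a8 and S100a9) and proteinase 3 (Prtn3) were followed across liver arrays of 11 male mice. They are 4 of the 12393 genes that a probe set with a single gene symbol measured, and each had 1 of the array's 22690 probe sets. They were selected on these data, for high signals of Lcn2 and Prtn3 in the DH mice defined here, so their differences between groups are given as a description and carry no test. The series asks how a high-fat diet and muscle growth driven by the kinase Akt1 alter liver gene expression. The DH group held 4 mice that carry the Akt1 double transgene and ate a high-fat diet, and only this group is marked as having muscle hypertrophy. The CH group held 4 wild-type mice on the same high-fat diet, and the CN group held 3 wild-type mice on a normal diet. All 3 groups had a mixed genetic background and were given doxycycline, an antibiotic that inducible transgenes can be made to respond to, over 3 weeks. The promoter and cell type that drive the transgene, the age of the mice, whether they were littermates and how long they were fed are not given in the sources used here. No group combined the transgene with the normal diet, so the transgene was compared with wild type under the high-fat diet alone.

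All 4 proteins are known from the granules or cytosol of neutrophils and from innate defence. Lipocalin 2 binds bacterial siderophores and so withholds iron from bacteria, and hepatocytes secrete it in the acute phase response, in which NF-kB, STAT3 and C/EBP factors drive its gene. S100A8 and S100A9 pair into calprotectin, which chelates zinc and manganese and is abundant in the cytosol of neutrophils and monocytes. Proteinase 3 is a serine protease that neutrophil precursors make and store in azurophil granules together with elastase, cathepsin G and myeloperoxidase, whose messages fade as the cells mature.

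The promoters of Lcn2 and Prtn3, the genes with the widest gaps between groups, are shown to set their sequence beside their signals. Each window, from RefSeq on build GRCm38.p6, runs from 250 bases before the gene's start to 50 bases after it, 5′ to 3′ on the gene's own strand. Lcn2 lies on the minus strand at chr2:32387690-32387989 and Prtn3 on the plus strand at chr10:79879417-79879716. Capitals mark the matches to 5 short motifs searched on both strands and to the TATA box TATAAA searched on the gene's own strand.
Lcn2: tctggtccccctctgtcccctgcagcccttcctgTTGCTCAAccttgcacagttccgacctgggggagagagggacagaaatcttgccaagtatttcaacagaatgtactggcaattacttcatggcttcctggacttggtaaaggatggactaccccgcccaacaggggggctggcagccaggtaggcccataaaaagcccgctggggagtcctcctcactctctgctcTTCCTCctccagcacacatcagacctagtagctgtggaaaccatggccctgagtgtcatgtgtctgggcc
Prtn3: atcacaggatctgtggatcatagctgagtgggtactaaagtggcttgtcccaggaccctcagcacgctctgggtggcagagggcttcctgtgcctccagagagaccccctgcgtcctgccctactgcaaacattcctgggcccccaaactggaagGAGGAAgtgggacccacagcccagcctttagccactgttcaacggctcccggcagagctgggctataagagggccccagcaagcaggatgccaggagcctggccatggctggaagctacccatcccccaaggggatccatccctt

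In the Lcn2 window the first capitals, at bases 35 to 42 counted from its 5′ end, match the C/EBP motif TTNNGNAA on the reverse strand. The other capitals, at bases 231 to 236, match the PU.1 motif GAGGAA on the reverse strand and overlap no other match. The Prtn3 window held 1 match, to GAGGAA at bases 156 to 161. The S100a8 window (chr3:90668821-90669120, plus strand) held 1 C/EBP match, 2 GAGGAA matches and a TATAAA at bases 221 to 226. The S100a9 window (chr3:90695672-90695971, minus strand) held 2 C/EBP matches and a TATAAA at bases 251 to 256. None of the 4 windows held the NF-kB consensus, the STAT motif TTCNNNGAA or the AP-1 motif TGANTCA. Of 32851 RefSeq windows of the same length, 40.7% held the C/EBP motif, 28.3% GAGGAA, 8.32% TATAAA, 8.46% the NF-kB consensus, 8.30% the STAT motif and 7.81% the AP-1 motif. A match describes letters and shows no binding.

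The values are linear MAS5 signals, scaled array by array by the authors. Spearman correlations between arrays were 0.935 to 0.956 over all probe sets. DH arrays 3 and 4 stood apart at the bright end, with top signals of 42426 and 43273 against 27780 to 35450 on the other 9 arrays. Differences of Lcn2 and Prtn3 and the calls over genes are therefore also given without them. To check the tissue, 15 hepatocyte markers were read, and all of the 12 on the array passed the filter on dim probe sets, with summed signals of 241877 to 326036 in DH, 236302 to 258597 in CH and 206724 to 244277 in CN. That filter left out probe sets whose log-scale mean fell in the lowest 40%, under a signal of 53.0, and kept 7924 genes. Lcn2 (log-scale mean 586) and Prtn3 (55.7) passed it, and S100a8 (34.1) and S100a9 (38.4) did not. Without the DH arrays the Prtn3 mean was 17.0, so Prtn3 passed through that group alone.

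Lcn2 had signals of 1180.1, 3174.5, 5720 and 8078.8 on the 4 DH arrays, against 211.8, 1068.3, 359.5 and 764.4 on the 4 CH arrays and 71.8, 62 and 58.7 on the 3 CN arrays. Every DH array was above every CH array, and every CH array above every CN array, although DH array 1 and CH array 2 lay close together. The means were 4538 ± 3004 in DH (SD, n = 4), 601 ± 389 in CH (SD, n = 4) and 64.2 ± 6.81 in CN (SD, n = 3). Ranked by signal among all probe sets of an array, Lcn2 stood at percentiles 87.6 to 97.8 in DH, 62.8 to 86.7 in CH and 41.9 to 43.1 in CN. Within a group the signal varied 6.85-fold among DH mice and 5.04-fold among CH mice, and the CN mice lay within a narrow band.

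On the log2 scale Lcn2 was 2.86 ± 0.57 higher in DH than in CH (SE, 7.26-fold), 2.97 ± 0.62 higher in CH than in CN (7.81-fold) and 5.83 ± 0.62 higher in DH than in CN (56.7-fold). As Lcn2 was chosen for its rise in these data, these errors test nothing. They come from a spread pooled over all groups and moderated by limma, although the CN arrays varied far less than the others. Without DH arrays 3 and 4, which held the highest Lcn2 signals, Lcn2 was 1.95 ± 0.59 higher in DH than in CH and 4.92 higher in DH than in CN. The CN signals of 58.7 to 71.8 lay just above the limit for dim probe sets, so the folds against CN depended on how dim values were treated. With 32 added to every signal before log2, Lcn2 was 2.49 higher in CH than in CN and 2.77 higher in DH than in CH. The comparison of DH with CN uses the same arrays as the other 2 comparisons and adds no separate mice.

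**Figure D1:**
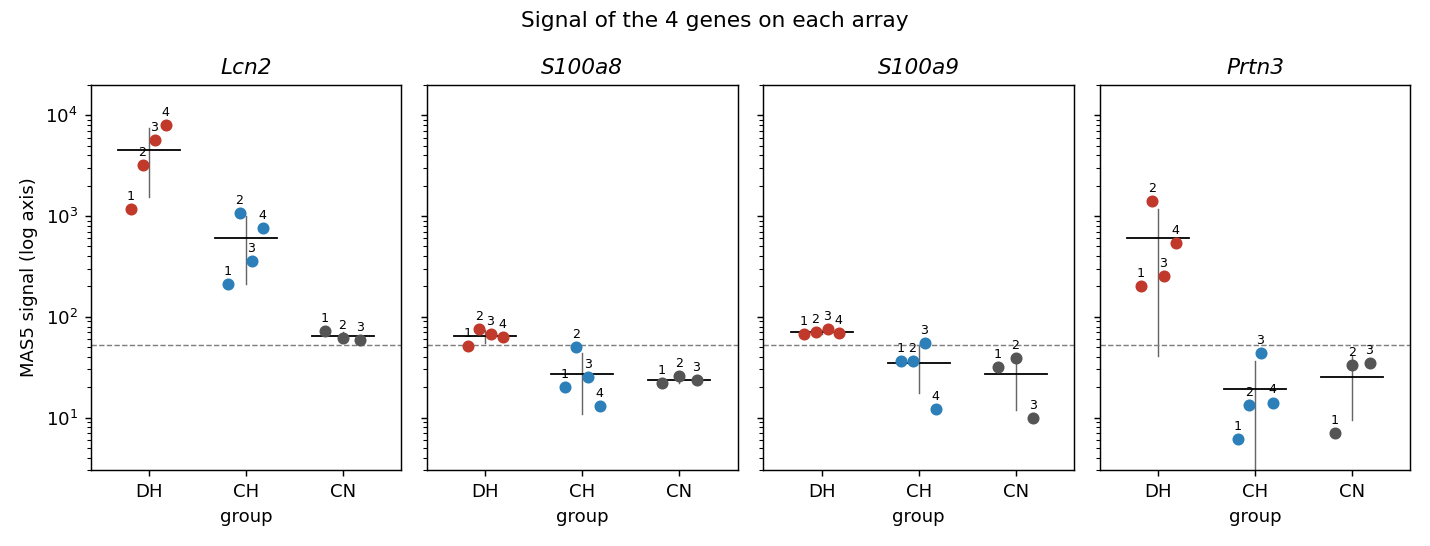
MAS5 signal (log axis) of Lcn2, S100a8, S100a9 and Prtn3 on each array, by group (DH, 4 arrays; CH, 4 arrays; CN, 3 arrays), with points numbered by replicate, a black line at the mean, a vertical line for ± SD and a dashed line at the limit for dim probe sets, a signal of 53.0. The DH points of Lcn2 lie between 1180.1 and 8078.8 and those of Prtn3 between 202.6 and 1417.8, all above the CH points, whereas the S100a8 and S100a9 points sit around or below the dashed line.

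Prtn3 had signals of 202.6, 1417.8, 251.9 and 542.4 on the DH arrays, against 6.1, 13.3, 43.9 and 14.1 on the CH arrays and 7, 33.5 and 34.6 on the CN arrays. All 4 DH arrays were above the limit for dim probe sets, and all 7 wild-type arrays were below it. CH and CN arrays overlapped. The means were 604 ± 563 in DH (SD, n = 4), 19.4 ± 16.8 in CH (SD, n = 4) and 25.03 ± 15.6 in CN (SD, n = 3). The highest DH array, number 2, had 6.998 times the signal of the lowest, number 1.

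Prtn3 was 4.89 ± 0.75 higher in DH than in CH (log2, SE, 29.7-fold) and 4.47 ± 0.81 higher in DH than in CN (22.2-fold). Between CH and CN the difference was -0.42 ± 0.81. The wild-type signals lay among the dim probe sets, and the size of the fold depended on how dim values were treated. With 32 added to every signal before log2, the difference between DH and CH was 3.29. Without DH arrays 3 and 4 it was 5.16. With all 7 wild-type signals under the limit, a difference between the diets in wild-type mice could not be sized for Prtn3.

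The calprotectin subunits had low signals, near the limit for dim probe sets in DH and mostly under it in CH and CN. S100a8 had signals of 51.4, 75.1, 67.7 and 63.5 on the DH arrays, against 19.9, 50.5, 25.5 and 13 on the CH arrays and 22.1, 25.6 and 23.5 on the CN arrays. S100a9 had 67.2, 70.3, 75.2 and 69.3 on the DH arrays, against 36.6, 36.8, 54.5 and 12.1 on the CH arrays and 32, 38.9 and 9.9 on the CN arrays. For both subunits every DH array was above every other array, by little in the case of S100a8, where DH array 1 and CH array 2 nearly met. CH and CN arrays overlapped for both. Above the limit for dim probe sets were 3 DH arrays for S100a8 and 4 for S100a9, with 1 CH array for S100a9 and no other wild-type array. The probe set of S100a8 carries the manufacturer's suffix for one that can match several transcripts.

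S100a8 averaged 64.4 ± 9.92 in DH, 27.2 ± 16.3 in CH and 23.7 ± 1.76 in CN (SD, n = 4, 4 and 3). S100a9 averaged 70.5 ± 3.39 in DH, 35 ± 17.4 in CH and 26.9 ± 15.1 in CN (SD, n = 4, 4 and 3). In the fit over all probe sets, S100a8 was 1.41 ± 0.44 higher in DH than in CH (log2, SE, 2.66-fold) and S100a9 was 1.20 ± 0.54 higher (2.29-fold). Against CN, the DH difference was 1.43 ± 0.48 for S100a8 and 1.61 ± 0.58 for S100a9. CH differed from CN by 0.02 ± 0.48 for S100a8 and by 0.41 ± 0.58 for S100a9. Among the 4 DH mice S100a9 varied 1.12-fold and S100a8 1.46-fold, against 6.85-fold for Lcn2 and 6.998-fold for Prtn3.

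The dim end of the arrays moved with the groups as well. Over the 7854 single-symbol probe sets under the limit, the median log2 difference was 0.26 between DH and CH, with quartiles of -0.29 and 0.77, and 0.05 between CH and CN. The differences of S100a8 and S100a9 between DH and CH lay above the upper quartile of these dim probe sets. The part of this shift in their differences was not tested.

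All 4 genes had every DH array above every CH array, which was true of 4.00% of the 20380 single-symbol probe sets. All 4 also had every DH array above every CN array, as did 7.48% of probe sets. Lcn2 alone had every CH array above every CN array, as did 3.71%. Among dim probe sets the shares were 3.14%, 6.201% and 2.70%. The genes were chosen with these comparisons in view, so nothing is read from their counts.

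The members ran together across groups more than within them. Log2 signals of Lcn2 and Prtn3 had a Pearson r of 0.72 and a Spearman rho of 0.66 over the 11 arrays, but an r of 0.16 and a rho of -0.04 once each group's mean was taken away. The 2 calprotectin genes had an r of 0.76 and a rho of 0.89, and an r of 0.47 and a rho of 0.55 on the deviations. S100a8 and Prtn3 had the highest r, 0.81, with a rho of 0.83, and an r of 0.24 and a rho of 0.53 on the deviations. Lcn2 and S100a8 had an r of 0.75 and a rho of 0.72, and 0.34 and 0.27 on the deviations. S100a9 and Prtn3 had an r of 0.61 and a rho of 0.77, and -0.01 and -0.03 on the deviations. Lcn2 and S100a9 had deviations with an r of -0.15 and a rho of -0.06. Among the DH mice, Lcn2 was highest on array 4 and Prtn3 on array 2, while S100a9 was nearly level. The arrays share the differences between groups, so these coefficients describe the arrays and carry no test.

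Genes of neutrophils were read next to the members, since bulk liver RNA cannot tell more cells of a type from more RNA per cell. Elane, Ctsg and Mpo encode elastase, cathepsin G and myeloperoxidase, the partners of proteinase 3 in azurophil granules. Elane had signals of 5.6, 82.1, 46.9 and 92.8 on the DH arrays, against 26.1, 17.4, 45.4 and 58.4 on the CH arrays and 18.9, 24.1 and 11.7 on the CN arrays. Ctsg had 69, 81.7, 3.8 and 57.2 in DH, against 20.3, 36.5, 22.8 and 6.5 in CH and 26, 8 and 29 in CN. Mpo had 5.9, 38.6, 32.5 and 32.9 in DH, against 19.5, 36.2, 11.2 and 28.4 in CH and 51.8, 29.3 and 6.5 in CN. DH and CH arrays overlapped for all 3, and no DH array of Mpo reached the limit for dim probe sets. Ctsg on DH arrays 1, 2 and 4 and Elane on DH arrays 2 and 4 were above that limit and above every wild-type array. On DH array 1, where Prtn3 had a signal of 202.6, Elane was at 5.6 and Mpo at 5.9, while Ctsg was at 69, above the limit and above every wild-type array. On DH array 3, where Prtn3 had 251.9, Ctsg was at 3.8.

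Genes of later granules and of mature neutrophils were likewise dim or overlapped. Ltf (lactoferrin) stayed between 2.3 and 35.1 in DH and between 1.6 and 37.5 in CH, and Camp (cathelicidin) between 3.3 and 50.3 in DH and between 1.9 and 46.6 in CH. Ngp, a neutrophil granule protein, had 29.7 to 81.4 in DH and 18.8 to 67.6 in CH. Cxcr2, a chemokine receptor of mature neutrophils, had 9.8 to 65.2 in DH and 15.3 to 41.6 in CH. Csf3r, the receptor for G-CSF, was the brightest of these genes, with 70.4 to 132 in DH, 42.6 to 115.1 in CH and 21.1 to 106.4 in CN, and alone among them passed the filter. Ly6g and Retnlg had no probe set with a single symbol.

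**Figure D2:**
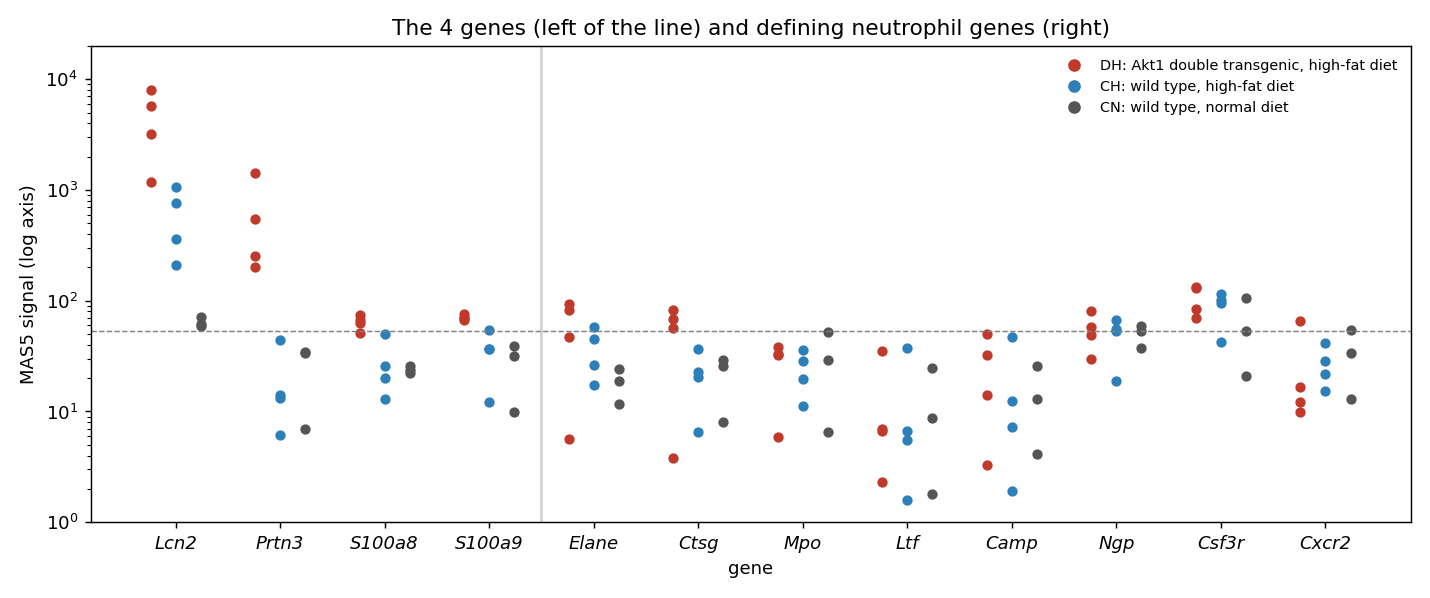
MAS5 signal (log axis) of Lcn2, Prtn3, S100a8 and S100a9, and of 8 defining neutrophil genes, on each array of DH (4), CH (4) and CN (3), with a dashed line at the limit for dim probe sets, a signal of 53.0. For Elane, Ctsg, Mpo, Ltf, Camp, Ngp, Csf3r and Cxcr2 the DH and CH points overlap, and for the first 4 genes they do not.

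The marker lists as a whole were read the same way. The 7 azurophil granule genes on the array, members left out, summed to 725.7 to 1042.6 in DH, 527.3 to 2240.4 in CH and 550.9 to 745.8 in CN. Lyz2, a lysozyme that many myeloid cells make, is among them and had 1987.4 on CH array 2 alone. Without it, a choice made after its signal was seen, the other 6 summed to 220.6 to 355 in DH, 192.1 to 253 in CH and 186.6 to 480.1 in CN. The 14 mature neutrophil markers summed to 763.8 to 1497.8 in DH, 693.7 to 1249.3 in CH and 598.5 to 711.2 in CN. The specific and gelatinase granule genes other than Arg1, a urea cycle enzyme of hepatocytes, were 12 and summed to 450.7 to 1035.6 in DH, 299.2 to 720.7 in CH and 251.9 to 497.4 in CN. Arg1 was left out after its signal was seen. DH and CH ranges of the sums overlapped for each of these lists, and for the mature markers the DH range lay above the CN range. Sums weigh bright probe sets most, and the mean log2 signal of a list relative to CN, which weighs its genes alike, ordered the lists otherwise. By that mean the specific and gelatinase genes without Arg1 were at 0.62 to 1.65 in DH, 0.13 to 0.81 in CH and -0.48 to 0.46 in CN, so that DH lay above CN and overlapped CH. The mature markers were at -0.02 to 0.62 in DH, -0.19 to 0.52 in CH and -0.14 to 0.08 in CN, and all 3 groups overlapped. The azurophil genes were at 0.19 to 1.01 in DH, 0.02 to 0.85 in CH and -0.23 to 0.36 in CN, and overlapped as well. Of the mature markers 7 passed the filter, and 6 of them had differences above 0 between DH and CH, with a median of 0.30 beside 0.00 over all 7924 genes. All 7 were above 0 between CH and CN (median 0.55, all genes 0.01) and between DH and CN (median 0.96, all genes 0.00). The 3 specific and gelatinase granule genes that passed the filter were above 0 in all 3 comparisons, with medians of 0.34 between DH and CH, 0.40 between CH and CN and 0.74 between DH and CN. None of the azurophil, specific granule or mature neutrophil genes passed the test in any comparison. Of the 2 azurophil genes that passed the filter, Serpinb1a, an inhibitor of neutrophil serine proteases, had a log2 difference of -0.86 ± 1.05 between DH and CH in limma (SE, adjusted p = 0.758), and Lyz2 had 0.02 ± 0.46.

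Macrophage markers were read in the same way. The 17 Kupffer cell and macrophage markers summed to 7400.7 to 19595.6 in DH, 5786.7 to 14523.5 in CH and 4481.6 to 7302.7 in CN. Of the 16 that passed the filter, 14 had differences above 0 between DH and CH (median 0.56) and 15 between CH and CN (median 0.59), but none passed the test in either comparison, and the DH and CH sums overlapped. In the comparison of DH with CN, where 2.08% of all genes passed, 2 of the 16 rose: Cd5l, a protein secreted by tissue macrophages (2.02 ± 0.46, log2, SE, adjusted p = 0.0456 in limma), and Folr2, a folate receptor of resident macrophages (1.53 ± 0.34, adjusted p = 0.0447). The call was lost in 12 of 21 other settings for Cd5l and in 16 of 20 for Folr2. The 9 monocyte markers summed to 13426 to 15105 in DH, 10920 to 13371 in CH and 11305 to 12326 in CN. Fn1 (fibronectin) made up most of these sums, with 12612.8 to 14337.5 in DH, 9486.6 to 12755.1 in CH and 10706.8 to 11811.7 in CN. By the mean log2 signal relative to CN, the 9 markers were at -0.08 to 0.83 in DH, -0.17 to 0.77 in CH and -0.09 to 0.08 in CN. By that mean all 3 groups overlapped. None of the 4 monocyte markers that passed the filter passed the test. T and NK cell markers (10 genes) summed to 212.3 to 335.8 in DH, 142.7 to 236.0 in CH and 138.7 to 200.9 in CN. Their mean log2 signals relative to CN were 0.45 to 1.03 in DH, -0.32 to 0.29 in CH and -0.29 to 0.40 in CN. By that mean every DH array lay above every wild-type array. None of these genes passed the filter, and dim probe sets as a whole were also higher in DH than in CH (median 0.26). B cell markers (7 genes) summed to 327.7 to 516.9 in DH, 230.7 to 388.3 in CH and 304.3 to 490.8 in CN, and their mean log2 signals overlapped. The part of these cells in the member differences was not tested.

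Ligands, receptors, regulators and relatives of the members were then counted in lists that left the members out. The 18 lists, cell markers included, held 262 genes, of which 208 were on the array and 127 passed the filter. The lists were chosen with earlier results of these data known, so their shares of calls cannot be weighed against those of all genes. Between DH and CH, 3 of the 127 passed the test at an adjusted p under 0.05 in limma, where 0.366% of all 7924 genes did (29 genes). Between DH and CN, 8 passed, where 2.08% of all genes did (165 genes). Between CH and CN, 0 passed, where 0% of all genes did in limma. In that comparison 556 of 7924 genes had an unadjusted p under 0.05, and the counts of adjusted calls over all genes were 1 with array weights and 2 with replicate numbers as blocks. The count of 3 depended on single arrays. It was 0 when CH array 1, CH array 3, CH array 4, DH array 2 or DH array 4 was left out, 1 without CN array 1, CN array 2 or DH array 3, and 1 without DH arrays 3 and 4. The count of 8 was 4 without CN array 1, DH array 2 or DH array 4, 3 without CN array 2, 5 without CH array 1, and 2 without DH arrays 3 and 4. The 29 genes called over the whole table between DH and CH were 0 without CH array 1, 1 without CH array 3, 2 without DH array 4, 3 without DH array 3, 6 without CH array 4 or DH array 2, 11 without CN array 1, 12 without CN array 2, 56 without DH array 1 and 64 without CH array 2. The 165 between DH and CN were 36 without DH array 4, 48 without CN array 1 or CN array 2, 73 without CN array 3, 96 without DH array 3 and 99 without CH array 1. Between DH and CH, the calls of Orm1, Apom and Car1 described next were lost in 14, 13 and 11 of 21 other settings, most of which left out an array. Between DH and CN, the call was lost in 1 setting for Cxcl1 and Stat3, 2 for Orm1 and Car1, 8 for Orm2 and 10 for Socs3, and no direction turned. For Cxcl1 and Stat3 that setting left out DH arrays 3 and 4, and it also lost the calls of Car1, Orm2 and Socs3. Without those arrays the log2 differences from CN were 2.31 for Cxcl1 and 1.01 for Stat3.

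Of the 3 calls between DH and CH, 2 were relatives of lipocalin 2. Orm1 and Orm2 encode orosomucoids, acute phase lipocalins of liver. Orm1 had signals of 13729.5, 16094.7, 13944.1 and 20148.6 in DH, against 9691.1, 10088.3, 10278.5 and 9085.8 in CH and 9782.1, 8765 and 9889.4 in CN. It rose in DH against CH by 0.69 ± 0.12 (log2, SE, adjusted p = 0.0398 in limma) and against CN by 0.74 ± 0.13 (adjusted p = 0.0162), with every DH array above every wild-type array. Orm2 had 704.5, 1045.6, 575.2 and 1404.3 in DH, against 126.2, 553.5, 202.1 and 212.9 in CH and 207.7, 125.6 and 272.4 in CN. It rose in DH against CN (2.19 ± 0.45, adjusted p = 0.0346), and its difference of 1.91 ± 0.42 from CH had an adjusted p of 0.0838. Apom, an apolipoprotein with a lipocalin fold that carries sphingosine-1-phosphate, had 7496.8, 7554.1, 6290.8 and 7239.2 in DH, against 4153.7, 4406.5, 4511.1 and 4050.8 in CH and 4872.9, 4394.4 and 7174.5 in CN. It rose in DH against CH (0.74 ± 0.14, adjusted p = 0.0482), while its difference from CN was 0.41 (adjusted p = 0.166), with CN array 3 among the DH arrays. Of the 10 other lipocalin genes that passed the filter, 9 had differences above 0 between DH and CH, with a median of 0.32. Over all 7924 genes 3975 were above 0, and of the 12 hepatocyte markers 11 were.

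Of the receptors and iron genes of lipocalin 2, 8 passed the filter and none passed the test, with a median of -0.04 between DH and CH and of 0.11 between CH and CN. Slc40a1, the iron exporter ferroportin, had a difference of -0.61 ± 0.24 between DH and CH in limma (adjusted p = 0.279), and Hmox1, which breaks down haem, had 0.57 ± 0.49 between CH and CN.

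Factors that act on the Lcn2 gene in hepatocytes were read next. Of 15 STAT3 and C/EBP factors and feedback genes that passed the filter, 10 had differences above 0 between DH and CH (median 0.14), and 2 rose in DH against CN. Stat3, the transcription factor that acts after IL-6, had 2387.2, 3309.5, 2660 and 3049.6 in DH, against 1631.4, 1820.6, 1553.7 and 2242.5 in CH and 1476.8, 1227.8 and 1510.9 in CN, a rise of 1.02 ± 0.15 in DH against CN (log2, SE, adjusted p = 0.00928 in limma). Socs3, the feedback inhibitor that STAT3 induces, had 1394.4, 828.3, 840.1 and 1429.6 in DH, against 201.2, 275.1, 102.3 and 538 in CH and 122.9, 163.9 and 435.9 in CN, a rise of 2.40 ± 0.52 against CN (adjusted p = 0.0413). Both genes had every DH array above every wild-type array. Their differences from CH had adjusted p of 0.0721 (Stat3, 0.66 ± 0.14) and 0.0801 (Socs3, 2.21 ± 0.48). Between CH and CN they were 0.36 ± 0.15 for Stat3 (adjusted p = 0.68) and 0.19 ± 0.52 for Socs3 (adjusted p = 0.964).

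Of the 11 NF-kB and IkB-zeta signalling genes that passed the filter, 6 had differences above 0 between DH and CH (median 0.10), and Cxcl1 alone passed the test. Cxcl1, a chemokine that draws neutrophils through Cxcr2, had 2656.3, 2681.4, 3904.3 and 3258.7 in DH, against 687.9, 1620.5, 696 and 1985.2 in CH and 397.8, 514.6 and 760.5 in CN. It rose in DH against CN by 2.52 ± 0.36 (log2, SE, adjusted p = 0.00788 in limma), and differed by 1.47 ± 0.34 between DH and CH (adjusted p = 0.0959) and by 1.05 ± 0.36 between CH and CN (adjusted p = 0.658). Of the 15 genes of IL-6, IL-17, IL-22 and G-CSF signalling that passed the filter, 11 had differences above 0 between DH and CH (median 0.31) and none passed the test. Il6ra, the IL-6 receptor chain, had a difference of 0.85 ± 0.23 (adjusted p = 0.131).

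Genes that bear on calprotectin and proteinase 3 gave no call. Of 8 calprotectin receptors and partners that passed the filter, 6 had differences above 0 between DH and CH, with a median of 0.19. Cd14, a co-receptor of TLR4, had 0.77 ± 0.27 (log2, SE, adjusted p = 0.228 in limma), and Cd36, a scavenger receptor that takes up fatty acids, had 1.91 ± 0.60 between CH and CN (adjusted p = 0.606). The 5 other S100 genes that passed the filter had a median of -0.09, and S100a13, the one of smallest p, had -0.23 ± 0.17 (adjusted p = 0.583). Of 9 processing enzymes, inhibitors and substrates of proteinase 3, 5 had differences above 0, with a median of 0.12. Ctsc (cathepsin C), which trims proteinase 3 into its active form, averaged 4594 in DH, 2335 in CH and 2703 in CN, a difference of 0.92 ± 0.22 between DH and CH with an adjusted p of 0.102. Slpi, a secreted inhibitor of neutrophil elastase, had -0.40 ± 0.23 (adjusted p = 0.477).

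Among the other cell lists, Car1, the carbonic anhydrase of red cells, fell in DH against CH by 1.01 on the log2 scale (SE 0.16, adjusted p = 0.037 in limma) and against CN by 1.11 (SE 0.17, adjusted p = 0.0108). Its signals were 131, 107.8, 134.1 and 138.1 in DH, against 259.4, 223.9, 330.7 and 222 in CH and 312.8, 257.4 and 255.3 in CN. Every DH array was below every wild-type array. Of the 3 erythroid genes that passed the filter, Alas2 had -0.61 ± 0.47 between DH and CH (adjusted p = 0.602 in limma) and Klf1 had 0.01 ± 0.29. The 8 erythroid markers on the array summed to 628.8 to 861.9 in DH, 929.5 to 1043.7 in CH and 782 to 1991.8 in CN. Their mean log2 signals relative to CN overlapped between all 3 groups. Of the 4 platelet genes that passed the filter none passed the test, with a median of 0.29 between DH and CH. The 12 hepatocyte markers had a median of 0.18 between DH and CH, with 11 above 0, and none passed the test. That median is not given without DH arrays 3 and 4, where Fgb, Tat and Cps1 were each higher than on DH arrays 1 and 2. Cps1 had 26009.8 and 24057.1 on DH arrays 3 and 4. On DH arrays 1 and 2 it had 19265.6 and 20064.9, within the CH range of 17548.6 to 20256.3.

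**Figure D3:**
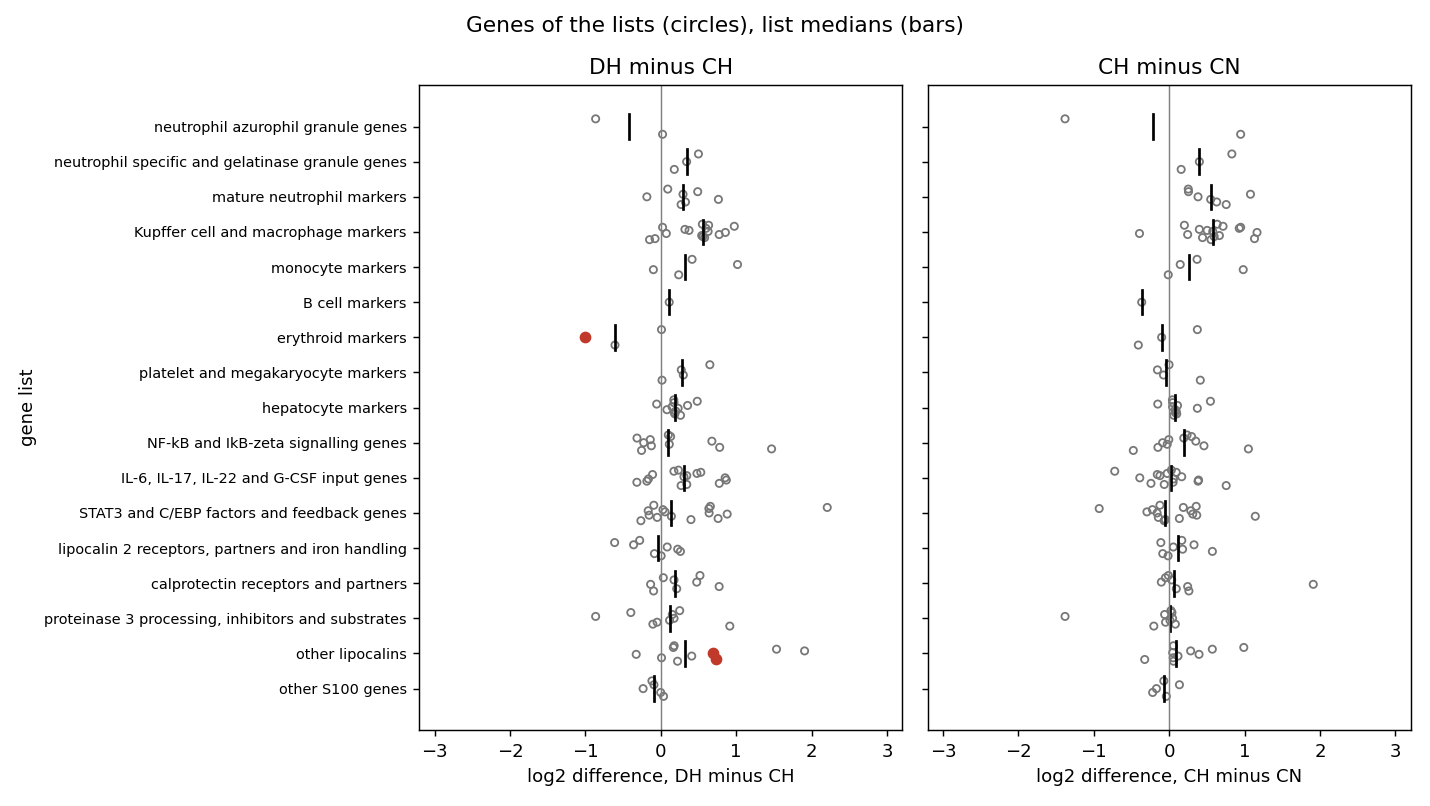
Log2 difference of each gene that passed the filter on dim probe sets, by list, between DH and CH and between CH and CN, with the list's median as a black bar and genes past an adjusted p of 0.05 in limma filled red. Orm1, Apom and Car1 are the 3 filled genes between DH and CH, and none is filled between CH and CN. The T and NK cell list is absent because 0 of its genes passed the filter.

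The genes whose log2 signals ran most like those of each member were ranked over the 11 arrays by Pearson's r, with Spearman's rho beside it. These are descriptions over 7924 genes, in which the arrays share the difference between groups. Lcn2 was most like Saa1 (r 0.985, rho 0.973) and Saa2 (r 0.966, rho 0.982), which encode the serum amyloid A proteins of the acute phase, followed by Ang (r 0.942, rho 0.955), Cd302 (r 0.938, rho 0.927) and Cxcl1 (r 0.936, rho 0.882). Saa1 had signals of 9657.7, 18530.6, 19885.7 and 25387.9 in DH, against 2551.6, 8759.7, 3025.5 and 4256.7 in CH and 1287.8, 861 and 1419.5 in CN. As for Lcn2, the lowest DH array was number 1, the highest number 4, and the highest CH array number 2. Saa2 had 1320.8, 6325.8, 6833.2 and 16431.4 in DH, against 567.7, 3162.9, 469 and 1096.4 in CH and 295.3, 271.8 and 265.2 in CN, and its DH and CH arrays overlapped. With group means taken away, Saa2 was the gene most like Lcn2 (r 0.926, rho 0.891), ahead of Ric8a (r 0.915, rho 0.845) and Wnt11 (r 0.914, rho 0.891). Saa1, the first by r before that step, was not among these 3.

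Prtn3 was most like Fgl1 (r 0.935, rho 0.945), a fibrinogen-like protein that hepatocytes secrete, followed by Dlg1 (r 0.915, rho 0.882), Tnfrsf1a, a receptor for TNF (r 0.913, rho 0.891), Cenpn (r 0.907, rho 0.900) and Dnajc12 (r 0.906, rho 0.718). Fgl1 had signals of 15593.8, 16934.2, 20776.5 and 21115 in DH, against 3783.4, 4925.2, 7822.7 and 7274.8 in CH and 3955.4, 5785 and 6172.3 in CN, with every DH array above every wild-type array and overlap between CH and CN. All wild-type signals of Prtn3, 6.1 to 43.9, were under the limit for dim probe sets, so its rankings rest in part on dim values. With group means taken away the genes most similar to Prtn3 were Ankib1 (r 0.888, rho 0.891), Snrnp48 (r 0.872, rho 0.873) and Plgrkt (r 0.869, rho 0.864). No gene of the neutrophil lists was among these 8, but most of those genes were below the filter and were not ranked.

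**Figure D4:**
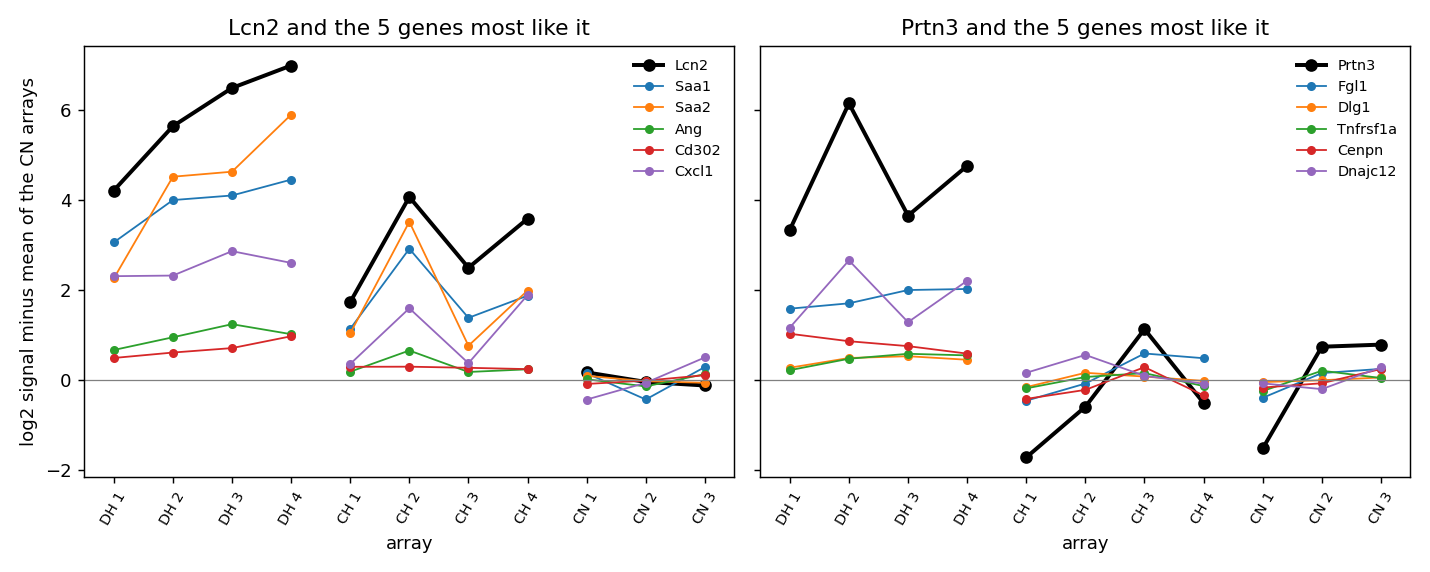
Log2 signal minus the CN mean on each array (DH 1 to 4, CH 1 to 4, CN 1 to 3) for Lcn2 and for Prtn3, each with the 5 genes of highest Pearson r over the 11 arrays. In the Lcn2 panel Lcn2 itself has DH above CH and CH above CN, while Saa2 overlaps between DH and CH and Cxcl1 between CH and CN. In the Prtn3 panel Prtn3 and Fgl1 overlap between CH and CN.

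S100a8 was most like Eln, which encodes elastin (r 0.970, rho 0.909), Mcm4 (r 0.937, rho 0.891), Stx3 (r 0.928, rho 0.873), Ung (r 0.925, rho 0.873) and Ralgps2 (r 0.924, rho 0.818). With group means taken away the nearest were Fuom (r 0.947, rho 0.964), Pus3 (r 0.942, rho 0.936) and Eln again (r 0.933, rho 0.727). S100a9 was most like Terf2 (r 0.943, rho 0.845), Tap2 (r 0.931, rho 0.873), Nup88 (r 0.929, rho 0.818), Nup210 (r 0.920, rho 0.891) and Rac3 (r 0.910, rho 0.60), and on deviations Gm20559 (r 0.939, rho 0.845), Parg (r 0.931, rho 0.800) and Rac3 (r 0.923, rho 0.864). Both subunits lay among the dim probe sets, and neither had the other subunit's nearest genes among its own.

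The neighbours of the members on the chromosome were read last, in the order of the RefSeq table. Prtn3 lies beside Elane, whose difference between DH and CH was 0.18 on the log2 scale in the fit over all probe sets. Nearby, Ptbp1 had -0.10 (adjusted p = 0.77 in limma) and Med16 had -0.02 (adjusted p = 0.96). Around Lcn2, Ciz1 had 0.45 (adjusted p = 0.27), Ptges2 -0.24 (adjusted p = 0.52) and Slc25a25 0.03 (adjusted p = 0.98). S100a8 and S100a9 lie side by side on chromosome 3, and the nearby S100a6 and S100a5 had dim signals with differences of 0.21 and 0.41 between DH and CH.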

How the data were processed

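Liver RNA of 11 mice, one array each, was turned into biotin-labelled cRNA with an oligo-dT primer and T7 polymerase, per the labels' protocols. The deposited values are linear intensity values (signal) that the authors made with MAS5 (version not given), per the submitters' processing notes. MAS5 scales each array, and its values were not rescaled here. Detection calls were not used here. Groups came from the sample titles and gene symbols from the platform annotation. The 20380 of 22690 probe sets with a single symbol were used, and 691 with several symbols, 1555 without one and 64 controls were left out.

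Over the 22626 probe sets other than controls, 1385 signals under 1 were set to 1 and log2 was taken. The lowest 40% of these by mean log2 signal set the limit for dim probe sets. Single-symbol probe sets under it were left out and each gene was read at its brightest probe set, for 7924 genes. All 11 arrays entered one fit of group means (limma 3.58.1, R 4.3.3: lmFit, then eBayes with trend, two-sided), and p-values were Benjamini-Hochberg adjusted over all genes, at 0.05. Standard errors of log2 differences are limma's, moderated. S100a8 and S100a9, below the filter, take theirs from the same fit over all probe sets. The script was tested on simulated data.

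The members and all gene lists were chosen with earlier results of these data known. Genes named from a list were those past the threshold, otherwise those of smallest unadjusted p for DH against CH or for CH against CN; a list that added nothing was given by counts. The defining neutrophil genes and the genes of highest Pearson r with each member were also named. One array per mouse is taken from the series' design text, and the number of arrays limits the precision. Other settings tried were log2(signal + 32), quantile normalization, no filter or one of 60%, all probe sets, other eBayes settings, array weights, only the groups compared, the replicate number as a block, leaving out each array and, added after the data were seen, leaving out DH arrays 3 and 4.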

Additional observations from a re-analysis of the deposited data

Results flagged for a closer look

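Of 24 groups of signals tested for an array far from the others, 3 had one, and chance alone can mark some such groups. The share that chance would mark among dim linear signals was not tested. Ltf had a highest DH signal of 35.1, on array 2, with the next at 7. In CH its highest signal was 37.5, on array 4, with the next at 6.6. Cxcr2 had a highest DH signal of 65.2, on array 4, with the next at 16.7. The gaps took 0.857, 0.861 and 0.875 of their group's range. Both genes lay under the filter on dim probe sets.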

How the results depend on the processing

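Over 21 other settings, each member's differences of DH from CH and from CN, and that of Lcn2 between CH and CN, kept their direction. The differences of S100a8, S100a9 and Prtn3 between CH and CN took both signs. With 32 added to each signal before log2, the difference between DH and CH was 0.74 for S100a8 and 3.29 for Prtn3, and that between DH and CN was 0.79 for S100a8, 0.83 for S100a9 and 3.13 for Prtn3; quantile normalization gave S100a8 1.19 against CN. Leaving out an array gave ranges between DH and CH of 2.45 to 3.40 for Lcn2, 1.11 to 1.77 for S100a8, 0.75 to 1.47 for S100a9 and 4.34 to 5.41 for Prtn3. Between CH and CN they were 2.6 to 3.38, -0.34 to 0.32, -0.20 to 0.86 and -1.19 to 0.01, and between DH and CN 5.44 to 6.37, 1.35 to 1.53, 1.00 to 1.98 and 3.71 to 4.86, in the same order of genes. The 3 list genes called between DH and CH were 0 with no filter or without the intensity trend, 1 with all probe sets, with only the groups compared, with the replicate block or without DH arrays 3 and 4, and 5 with array weights, and 0 to 4 on leaving out an array. The 29 genes over the whole table were 12 with no filter, 0 without the trend, 58 with array weights, 8 with only the groups compared and 4 without DH arrays 3 and 4, and 0 to 64 on leaving out an array. Between CH and CN, the 0 genes over the whole table were 1 with array weights, 2 with the replicate block, 2 without DH arrays 3 and 4, and 0 to 2 on leaving out an array. Between DH and CN, the 8 list genes were 4 without the trend, 2 without DH arrays 3 and 4 and 3 to 10 on leaving out an array, and the 165 genes were 81 without the trend, 104 with only the groups compared, 23 without DH arrays 3 and 4 and 36 to 199 on leaving out an array. Counts moved both ways, and the cause was not tested. Same-numbered DH and CH arrays had deviations with r of 0.0842 to 0.292 over 7924 genes, all above 0. Arrays of unlike number were not compared, so these values cannot settle whether the numbers mark pairs. The main fit did not take them as pairs. With the replicate block Lcn2 was 2.86 ± 0.44 higher in DH than in CH, beside an SE of 0.57 in the main fit. Signals under 53.0 carry little information on size, which limits S100a8, S100a9, the wild-type signals of Prtn3 and nearly all defining neutrophil genes.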
